A study of Mus musculus with 14 samples.

Results

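*Fabp6*, *Slc10a2*, *Fgf15*, *Nr1h4*, *Nr0b2*, *Cubn*, *Amn* and *Tcn2* are 8 genes through which the gut takes up, senses and hands on bile acids and cobalamin, 8 of 36161 gene names on the array. They were chosen by name and from their levels on these same arrays, as a guide to the stretch of gut in each piece of tissue. Their differences between groups are therefore given as a description, and nothing is read from which of them pass a threshold. Where a gene had several probes, the brightest on average over 14 arrays stands for it. *Cubn* had a further probe and the other genes had 1 probe each.

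Bile acids are made in the liver, help to dissolve fat in the upper small intestine, and are recovered almost whole in the ileum, the last stretch of the small intestine. There the transporter encoded by *Slc10a2* takes them into the enterocyte, the cytosolic carrier encoded by *Fabp6* carries them, and the exporter made of *Slc51a* and *Slc51b* passes them to the blood. Inside the cell they bind the nuclear receptor FXR, encoded by *Nr1h4*, which induces the repressor SHP (*Nr0b2*) and the hormone FGF15 (*Fgf15*) that lowers bile acid synthesis in the liver. Cobalamin, or vitamin B12, reaches the ileum bound to intrinsic factor and is taken up by cubam, a receptor made of cubilin (*Cubn*) and amnionless (*Amn*), after which transcobalamin (*Tcn2*) carries it in the blood.

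RNA of whole tissue or cells was hybridized to 1 one-color array per sample. Healthy small intestine (3 arrays) and colon (3 arrays) were from C57BL/6J mice according to the labels, and macroscopic adenomas (3 arrays) and tissue adjacent to adenomas (2 arrays) were from APCmin/+ mice, which carry a truncating mutation in *Apc* on the C57BL/6J background. CT26 (3 arrays) is a cultured mouse colon carcinoma line. The list of samples in the study gives different C57BL/6J mice for the small intestine arrays and a single APCmin/+ mouse for all adenoma and adjacent arrays, so the spread of these groups is that between pieces of tissue. The same list places a colon sample under an APCmin/+ mouse, against the labels. Wild type mice were adult, and neither source gives the position along the gut from which a piece was taken.

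A level is the log2 of the background-subtracted signal minus the 75th percentile of the array, so that a level of 0 lies at that percentile. Levels of different probes cannot be set against each other, and only the differences between arrays for the same gene are compared. Of 55681 probes, an array measured from 46.8% to 58.2% well above background. The arrays lay on 2 slides, and both slides held arrays of every group. In whole tissue, fewer cells of a type and less RNA per cell cannot be told apart.

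The probe sequences below show what was read for the ileal carrier and for both subunits of cubam, as 60 bases of the transcript. The *Fabp6* probe lies at chr11:43410973-43411032 on the minus strand in mm9, the build of the scanner files. The *Cubn* probe shown is the dimmer of the pair, at chr2:13205609-13205668 on the minus strand. Values of *Cubn* are from the brighter probe, at chr2:13197978-13198037 on the same strand, unless the dimmer is named. The *Amn* probe lies on the plus strand at chr12:112514095-112514243, a span of 149 bases for a probe of 60, so it reads across spliced exons.
Fabp6 probe: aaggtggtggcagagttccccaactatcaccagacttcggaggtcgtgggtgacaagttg
Cubn probe: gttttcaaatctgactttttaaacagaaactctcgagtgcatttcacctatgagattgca
Amn probe: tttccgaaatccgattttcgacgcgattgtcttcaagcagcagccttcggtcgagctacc

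Promoters (250 bases before the start and 50 after, RefSeq, GRCm38.p6) were found for 6 of the 8 genes; *Fgf15* and *Tcn2* have no entry in the table. Those of *Fabp6* and *Slc10a2*, which had the largest ranges of the 8 genes over the small intestine arrays, are printed with matches to searched motifs in capitals. The motifs, searched on both strands, were AGGTCA (the hexamer of nuclear receptors), AGGTCANTGACCT (the inverted repeat 1 that FXR binds, which contains the hexamer on each strand), TTTATG (factors of the CDX family), AGATAA (the family of *Gata4* and *Gata6*) and GTTAAT (the core of HNF1 sites). The *Fabp6* promoter, at chr11:43601513-43601812 on the minus strand, held CATAAA, the complement of the CDX motif. It also held AGGTGAATGACCA and AGGTGAATAACCT, each with 2 mismatches to the inverted repeat.
Fabp6 promoter: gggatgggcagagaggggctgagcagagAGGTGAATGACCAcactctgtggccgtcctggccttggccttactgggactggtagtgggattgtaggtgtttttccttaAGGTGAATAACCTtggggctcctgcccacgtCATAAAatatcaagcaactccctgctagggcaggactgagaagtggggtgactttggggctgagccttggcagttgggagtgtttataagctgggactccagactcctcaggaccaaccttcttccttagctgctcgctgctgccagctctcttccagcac
Slc10a2 promoter: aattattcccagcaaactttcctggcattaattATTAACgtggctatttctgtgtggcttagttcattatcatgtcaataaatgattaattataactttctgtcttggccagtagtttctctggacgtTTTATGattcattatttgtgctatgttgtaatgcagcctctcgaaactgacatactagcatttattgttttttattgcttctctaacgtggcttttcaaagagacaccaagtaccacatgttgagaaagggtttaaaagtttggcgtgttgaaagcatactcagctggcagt

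The *Slc10a2* promoter, at chr8:5105238-5105537 on the minus strand, held TTTATG and, on the opposite strand, the HNF1 core as ATTAAC. Of 32851 promoters of the same length, 11.9% held the CDX motif, 7.1% the HNF1 core and 1.14% an inverted repeat with up to 2 mismatches, whereas 3 held the exact inverted repeat. The *Nr1h4* promoter held the nuclear receptor hexamer, present in 16.3% of all promoters, and the CDX, GATA (11.2% of promoters) and HNF1 motifs. The *Cubn* promoter held an inverted repeat with 2 mismatches and no other match, and those of *Amn* and *Nr0b2* held none. A match of letters describes the window and says nothing of a factor being bound there.

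Arrays of the same group differed in their markers of gut segments. Markers of enterocytes of any segment (*Vil1*, *Alpi*, *Sis*, *Anpep*, *Fabp2*, *Mep1b*) were well above background on every tissue array, with a median level from 8.44 to 8.86 in small intestine. The 10 markers of the proximal small intestine, among them lactase (*Lct*) and the glucose transporter *Slc2a2*, had a median of 1.75 on small intestine replicate 1 against 4.48 and 5.17 on replicates 2 and 3. *Lct* was at 5.92 on replicate 1 and at 9.38 and 9.39 on the other arrays, and *Slc2a2* at 0.04 against 4.15 and 4.82. Of the 10 markers, 9 were lowest of their group on small intestine replicate 1 and 1, the iron exporter *Slc40a1*, was highest there (0.84). Among the small intestine arrays, replicate 1 also had the highest *Fabp6*, *Slc10a2* and *Fgf15*. In adjacent tissue the proximal list had a median of 2.69 on replicate 1 and 4.48 on replicate 2.

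The library labelled colon replicate 3 went against its label. Carbonic anhydrase 1 (*Car1*), an abundant gene of colonocytes, was at 7.17 and 7.75 on colon replicates 1 and 2 and at -3.09 on replicate 3, within the range of the small intestine arrays (-3.13 to -2.49). *Hoxb13*, a homeobox gene of the distal gut, was at 7.22 and 5.61 against -5.79, which was not well above background, and the water channel *Aqp8* at 6.44 and 6.78 against -4.61, not above background either. Sucrase-isomaltase (*Sis*), a brush border enzyme of the small intestine, was at -0.01 and -1.47 on colon replicates 1 and 2 and at 7.51 on replicate 3. Of the 5 colonocyte markers on the array, 3 were well above background on this array and 5 on each of the other colon arrays. It also had the highest median of the lymphocyte markers (2.26, against -0.62 and 0.01), the highest summed level of these markers (4.29, against 1.33 to 2.95 on the other tissue arrays) and the smallest share of probes above background. Differences against colon are therefore also given without this library where it moved them by over 1.5-fold or changed a call.

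**Figure D1:**
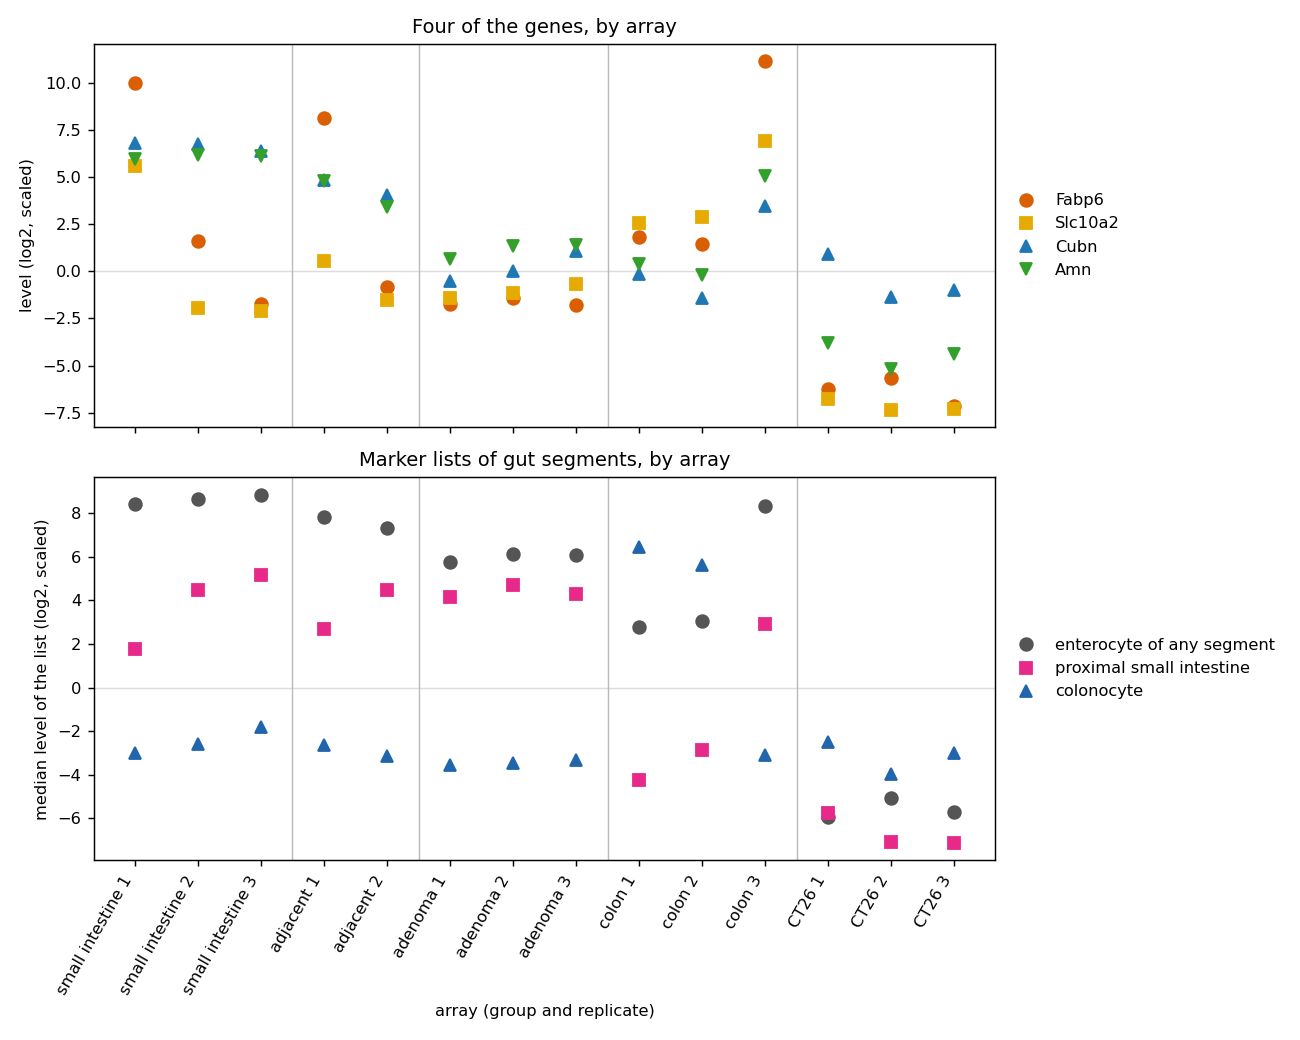
Upper panel, level (log2 of the signal minus the 75th percentile of the array) of *Fabp6*, *Slc10a2*, *Cubn* and *Amn* on each of 14 arrays. Lower panel, median level on the same scale of markers of enterocytes (6 genes), of the proximal small intestine (10) and of colonocytes (5). *Fabp6* and *Slc10a2* were high where proximal markers were low among small intestine and adjacent arrays, whereas *Cubn* and *Amn* were level over the small intestine arrays, and colon replicate 3 had the enterocyte median of small intestine (8.32) and a colonocyte median of -3.09. Heights of different genes are not comparable.

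Over the small intestine arrays the bile acid transporter and its carrier spanned more than the means of the tissue groups did. *Slc10a2* was at 5.56, -1.94 and -2.11 on the small intestine arrays (replicates 1 to 3), at 0.55 and -1.55 in adjacent tissue, at -1.40, -1.17 and -0.68 in adenomas, and at 2.58, 2.86 and 6.91 in colon. It was not well above background on any CT26 array (-7.33 to -6.77). *Fabp6* was at 9.95, 1.60 and -1.74 in small intestine, where the first spot was saturated and its value is thus a lower limit. It was at 8.12 and -0.83 in adjacent tissue, at -1.76, -1.42 and -1.78 in adenomas and at 1.84, 1.42 and 11.12 in colon, and it was not above background in CT26 (-7.12 to -5.65). Both genes were high on small intestine replicate 1 and on the library labelled colon replicate 3, and the first of the adjacent arrays was the higher one for both.

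The order of the group means rested on single arrays. For *Slc10a2* it ran from colon (4.12 ± 2.43, SD, n = 3) over small intestine (0.51 ± 4.38, n = 3), adjacent tissue (-0.50 ± 1.49, n = 2) and adenomas (-1.08 ± 0.36, n = 3) to CT26 (-7.14 ± 0.31, n = 3), and no neighbors other than adenomas and CT26 were apart by more than their spread. For *Fabp6* it ran from colon (4.79 ± 5.48, n = 3) over adjacent tissue (3.64 ± 6.32, n = 2) and small intestine (3.27 ± 6.02, n = 3), to adenomas (-1.65 ± 0.20, n = 3) and CT26 (-6.34 ± 0.74, n = 3), and no neighbors other than adenomas and CT26 were apart. Adenomas stood out by how little their pieces differed, over a range of 0.35 for *Fabp6* and 0.71 for *Slc10a2*. On colon replicates 1 and 2, whose colonocyte markers were in place, *Slc10a2* was above its level on small intestine replicates 2 and 3 and below that on replicate 1.

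The gene of FXR varied less between pieces of gut than the transporter and the carrier. *Nr1h4* was at 4.22, 3.17 and 2.52 in small intestine, at 3.31 and 2.66 in adjacent tissue, at 1.79, 2.02 and 1.76 in adenomas, at 3.89, 3.49 and 5.16 in colon and at -0.51, -0.30 and -0.57 in CT26. It was well above background on all 14 arrays, and each of the adenoma arrays lay below each of the other tissue arrays. Its means ran from colon (4.18 ± 0.87) over small intestine (3.30 ± 0.86) and adjacent tissue (2.99 ± 0.46), which overlapped, to adenomas (1.86 ± 0.14) and CT26 (-0.46 ± 0.14), and small intestine replicate 1 was the highest of its group here too.

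Among the targets of FXR, *Fgf15* was at 2.42, -0.43 and -1.84 on the small intestine arrays. It was at 0.88 on adjacent replicate 1 and not above background on replicate 2 (-6.27). It was above background on 1 of 3 adenoma arrays (replicate 2, -4.54) and on 1 of 3 colon arrays, the library labelled colon replicate 3 (-0.19), and on no CT26 array. As for *Fabp6*, small intestine replicate 1, adjacent replicate 1 and colon replicate 3 were the highest of their groups. *Nr0b2*, which encodes SHP, was dim throughout. It was at -1.13 and -2.40 on small intestine replicates 1 and 3, at -2.40 on colon replicate 1 and from -5.22 to -4.05 on the adenoma arrays, and it was not above background on small intestine replicate 2, the adjacent arrays, the other colon arrays or CT26.

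The cobalamin genes behaved otherwise and were level over the small intestine arrays. *Cubn* was at 6.81, 6.72 and 6.36 in small intestine, at 4.82 and 4.02 in adjacent tissue, at -0.50, 0.02 and 1.06 in adenomas, at -0.14, -1.41 and 3.48 in colon and at 0.89, -1.36 and -0.97 in CT26. Small intestine arrays were all above adjacent arrays, which were all above adenoma arrays, and the library labelled colon replicate 3 stood between adenomas and adjacent tissue. The dimmer *Cubn* probe, whose sequence is given above, was at 2.11, 1.95 and 1.74 in small intestine and at 0.10 and -0.90 in adjacent tissue. It was above background on 1 of 3 arrays each in adenomas (replicate 3, -3.51), colon (the library labelled colon replicate 3, -1.92) and CT26 (replicate 1, -3.72), the arrays on which the brighter probe was highest in those groups.

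*Amn*, the subunit that holds cubilin at the membrane, was at 5.95, 6.16 and 6.09 in small intestine, at 4.77 and 3.41 in adjacent tissue and at 0.67, 1.32 and 1.41 in adenomas. In colon it was at 0.37, -0.18 and 5.06, and in CT26 it was above background on replicates 1 and 3 (-3.82 and -4.36). As for *Cubn*, the small intestine arrays were all above the adjacent arrays and these all above the adenomas, and colon replicate 3 was apart from the other colon arrays. *Tcn2* was at 7.67, 7.88 and 7.97 in small intestine, at 6.66 and 6.34 in adjacent tissue, at 5.05, 5.69 and 5.21 in adenomas and at 5.12, 4.87 and 7.01 in colon, and it was above background on 1 of 3 CT26 arrays (-4.80). *Tcn2* is made by many cell types, and its group means stood in the same order as those of *Cubn* and *Amn*, with smaller steps among the tissues in log2 units. The place of colon above adenomas in that order rested on the library labelled colon replicate 3.

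The means of *Cubn* ran from small intestine (6.63 ± 0.23, SD, n = 3) over adjacent tissue (4.42 ± 0.56, n = 2) to colon (0.64 ± 2.54, n = 3), adenomas (0.19 ± 0.80, n = 3) and CT26 (-0.48 ± 1.2, n = 3), of which the last groups overlapped. Those of *Amn* ran from 6.06 ± 0.11 in small intestine over 4.09 ± 0.96 in adjacent tissue, 1.75 ± 2.88 in colon and 1.13 ± 0.40 in adenomas to -4.45 ± 0.68 in CT26, and those of *Tcn2* from 7.84 ± 0.15 over 6.50 ± 0.23, 5.67 ± 1.17 and 5.32 ± 0.33 to -5.16 ± 0.32 in the same order. For *Amn* and *Tcn2*, colon overlapped both adjacent tissue and adenomas, and small intestine and CT26 were apart from their neighbours.

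**Figure D2:**
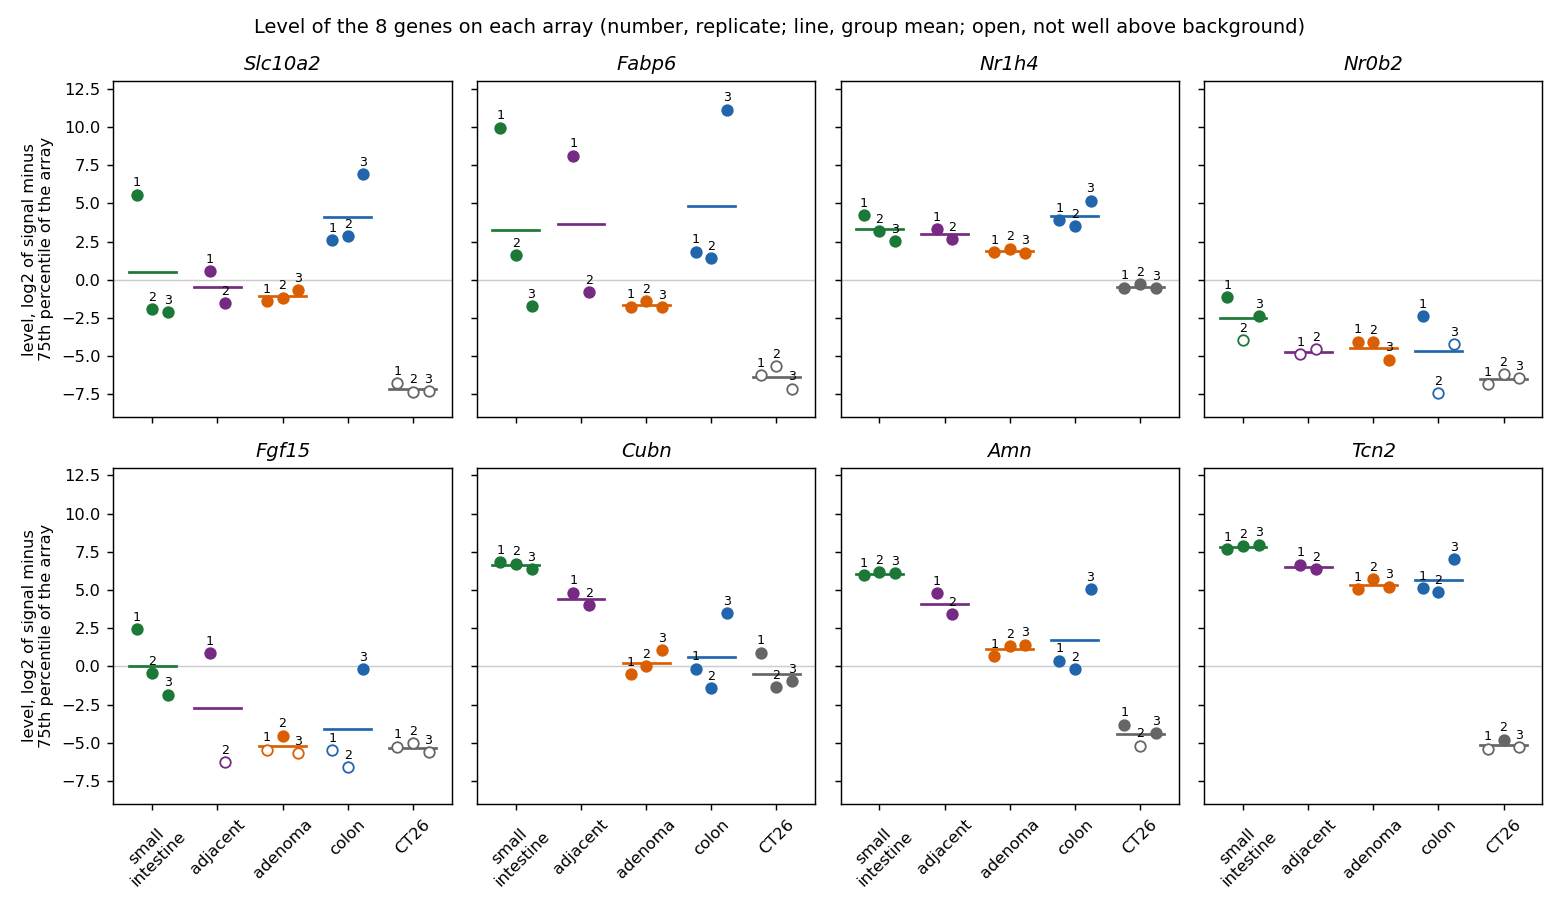
Level of each of the 8 genes (log2 of the signal minus the 75th percentile of the array) on each array, by group. Numbers are replicates, lines are group means and open circles are arrays on which the probe was not well above background. *Fabp6* spans 11.69 log2 units over the small intestine arrays and *Amn* 0.22.

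All 3 small intestine arrays measured 26325 probes well above background, whose median range between these arrays was 0.54 log2 units. *Fabp6* had the largest range of all of them, 11.69, and *Slc10a2* (7.67) was among the 4 largest. The ranges of *Fgf15* (4.26) and *Nr1h4* (1.70) were reached or passed by 0.186% and 4.43% of the probes. The ranges of *Cubn* (0.44), *Amn* (0.22) and *Tcn2* (0.29) were below the median and were reached by 61.3%, 88.1% and 79.5% of the probes. These shares describe 3 arrays from which the genes were in part chosen.

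Between adenomas and small intestine, the group means of all 8 genes were lower in adenomas, with a median log2 difference of -3.72 beside -0.15 over all probes tested. *Cubn* differed by -6.44 (standard error 0.48, an 86.6-fold lower signal), *Amn* by -4.93 (0.24) and *Tcn2* by -2.52 (0.21). *Fgf15*, which was above background on 1 of 3 adenoma arrays, differed by -5.28 (1.30). All 8 genes were tested, and 4 passed the thresholds of the study (a log2 fold change of 1.2 and a limma adjusted p of 0.01). They were *Fgf15*, *Cubn*, *Amn* and *Tcn2*, and 21.9% of all probes tested passed too. Nothing is read from this count, since the same levels chose the genes. The same holds for each pass or failure of the 8 genes below, with all arrays or with an array left out. *Cubn*, *Amn* and *Tcn2* passed whichever array was left out, and *Fgf15* passed without small intestine replicate 1 or 3 and not without replicate 2 or any adenoma array. Under 9 alternative settings with all arrays, *Cubn*, *Amn* and *Tcn2* each passed in 9 and *Fgf15* in 4. Without small intestine replicate 1 the difference of *Fabp6* went from -4.92 to -1.58, that of *Slc10a2* from -1.59 to 0.94 and the median over the 8 genes to -2.09, whereas those of *Cubn* (-6.35), *Amn* (-4.99) and *Tcn2* (-2.61) moved by less than 0.1.

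Of the other lists, those of enterocytes and smooth muscle were lower in adenomas than in small intestine. Those of the proximal small intestine and of epithelium overlapped small intestine. All 6 enterocyte markers were above background on every adenoma array, and their median was 5.79 to 6.14 there, 7.31 and 7.84 in adjacent tissue and 8.44 to 8.86 in small intestine, with summed levels of 8.50 to 9.07, 10.65 and 11.03, and 11.21 to 11.68. The 5 smooth muscle markers had medians of 3.96 to 4.40 in adenomas, 4.65 and 6.69 in adjacent tissue and 4.78 to 6.80 in small intestine, with all of them above background. The proximal list had medians of 4.18 to 4.73 in adenomas, 2.69 and 4.48 in adjacent tissue and 1.75 to 5.17 in small intestine. The 4 epithelial markers (*Epcam*, *Cdh1*, *Krt8*, *Krt18*) had medians of 7.16 to 7.50, 6.39 and 6.48, and 6.87 to 7.24. The part of any of these lists in the values of the 8 genes was not tested.

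Between adenomas and the adjacent tissue, 7 of the 8 means were lower in adenomas (median -1.86, all probes -0.05), and for the exception, *Nr0b2*, no adjacent array was above background and no direction is read. *Fgf15* was not tested, and of the other 7 genes *Cubn* alone passed the thresholds, as did 3.98% of all probes tested. It differed by -4.23 (standard error 0.66). It passed without adjacent replicate 2 but not without adjacent replicate 1 or any single adenoma array, and not with slide or replicate number as a block, and its dimmer probe (-4.20) did not pass. *Amn* differed by -2.96 (0.59), *Tcn2* by -1.18 (0.28) and *Nr1h4* by -1.13 (0.26), with no overlap between the arrays of the groups. Of 37 other genes of bile acid and cobalamin handling, listed below, 28 had no overlap either, and nothing is read from it. The difference of *Fabp6* (-5.29) rested on adjacent replicate 1, which stood 8.94 log2 units above adjacent replicate 2.

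Between adjacent tissue and small intestine, *Nr0b2* was not tested. None of the 7 genes tested passed the thresholds, which 0.00694% of all probes tested did. The differences of *Cubn* (-2.21, standard error 0.34), *Amn* (-1.97, 0.51) and *Tcn2* (-1.34, 0.17) were in 1 direction and without overlap between groups. Of the 37 other genes listed below, 18 had no overlap either, and nothing is read from it. The median difference over the 8 genes was -1.66 beside -0.09 over all probes. The differences of *Fabp6* (0.37, standard error 5.59) and *Slc10a2* (-1.01, 3.36) were smaller than their errors and changed sign without single arrays. *Nr0b2* was measured on 2 of 3 small intestine arrays and on no adjacent array, so no fold is given for it. Elsewhere a lower bound is given where no array of 1 group measured the gene and every array of the other did. It is the mean of the group that did over the lowest signal well above background on each array of the group that did not. The gene's own signal there is used instead if it was higher.

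Between colon and small intestine, *Nr0b2* was not tested. None of the 7 genes tested passed the thresholds either, beside 0.00733% of all probes tested. *Cubn* differed by -5.99 (standard error 1.47), *Amn* by -4.32 (1.66) and *Tcn2* by -2.17 (0.68), all lower in colon, and the median over the 8 genes was -2.18 beside -0.08 over all probes. Without the library labelled colon replicate 3 these differences were -7.41, -5.97 and -2.85, and these 3 genes passed. That of *Fabp6* turned from 1.52 to -1.64 and that of *Slc10a2*, which had its highest mean in colon, went from 3.61 to 2.21. Over all probes, 2 passed the thresholds with this library and 2120 without it.

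Between CT26 and colon, all 8 means were lower in CT26 (median -5.42, all probes 0.37). *Fgf15* and *Nr0b2* were above background on no CT26 array and on 1 of 3 colon arrays each. They were not tested, and no direction is read for them. Without colon replicate 3, *Fgf15* differed by 0.73, with no array of either group above background. Of the 6 genes tested, 5 passed the thresholds, as did 36.4% of all probes tested. *Fabp6* was at least 1080-fold and *Slc10a2* at least 673-fold lower in CT26, where no array measured them, and without the library labelled colon replicate 3 at least 120-fold and 255-fold. *Tcn2* differed by -10.83 (standard error 0.70), *Amn* by -6.20 (1.71) and *Nr1h4* by -4.64 (0.51). Without that library these differences were -10.16, -4.55 and -4.15, and the median over the 8 genes was -4.35. The same 5 genes passed whichever colon array was left out, and *Fabp6* and *Amn* did not pass on leaving out any of the CT26 arrays. *Cubn* differed by -1.12 (1.62), by 0.30 without colon replicate 3 and by 1.37 within slide 1. The epithelial markers *Epcam* and *Cdh1* were below background on every CT26 array, and of the 4 epithelial markers the keratin gene *Krt18* was above it on all of them (4.92 to 5.77). The part of this in the differences was not tested.

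**Figure D3:**
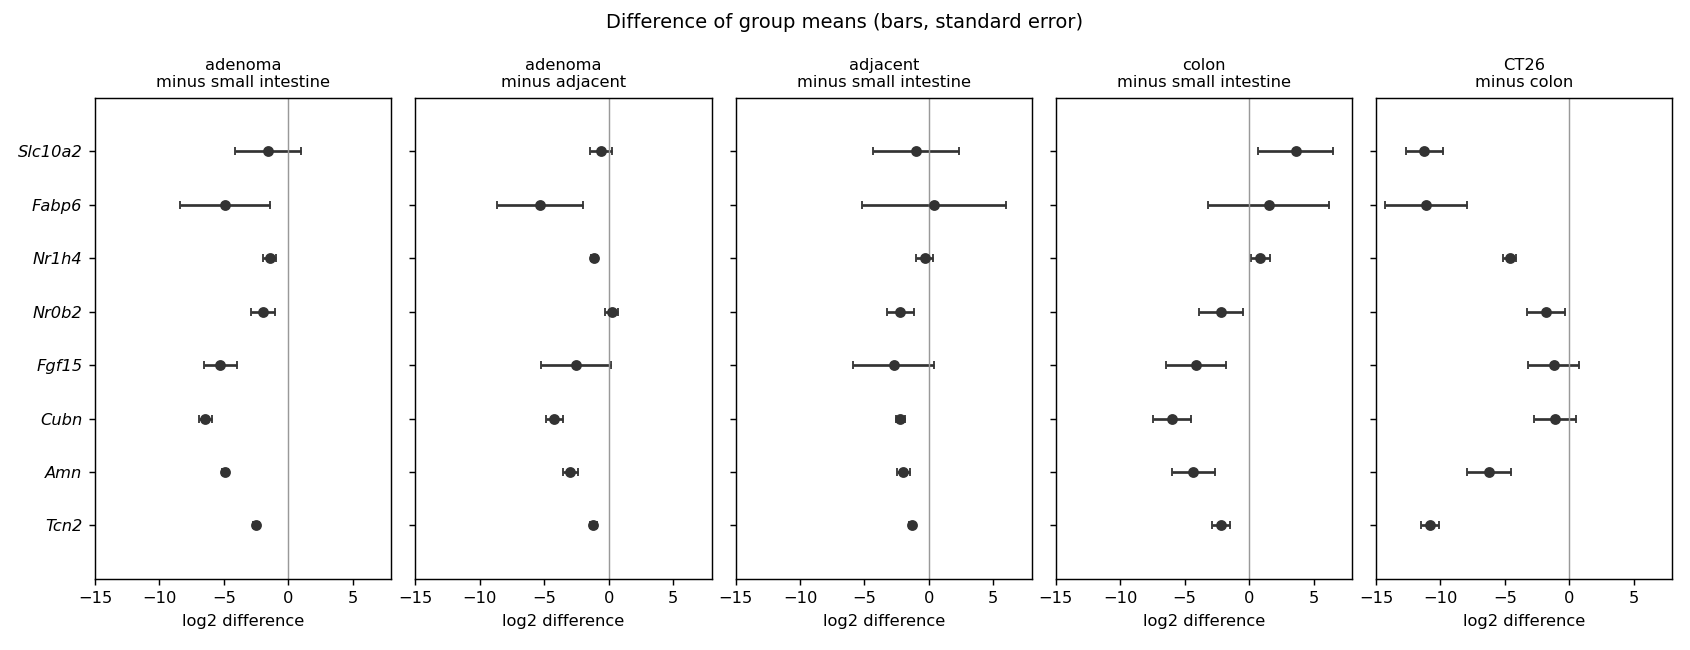
Difference of the group means (log2) of the 8 genes in 5 comparisons, with standard errors as bars. *Cubn*, *Amn* and *Tcn2* had small errors where small intestine, adjacent tissue and adenomas were compared, and *Fabp6* had errors from 3.19 to 5.59 in all comparisons.

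The genes whose profile over the 11 tissue arrays was nearest to that of a member were sought among 32758 probes by the root mean square difference of centered log2 levels. For *Slc10a2* the nearest was *9130221J18Rik* at 0.27 (the median over all probes was 3.03), whose probe at chr8:5083366-5083425 lies on the same strand 2720 bases from that of *Slc10a2*. It was followed by *Mgat4c* (1.70), *Ddah1* (1.82), *Suox*, which encodes sulfite oxidase (1.86), and *Rpl26-ps2* (1.86). For *Fabp6* the nearest were *Gm9817* (2.53), *Tmigd1* (2.62), *Ttc36* (2.88), *9130221J18Rik* (2.90) and *Plb1*, a brush border phospholipase (2.99), beside a median of 4.71. *Tmigd1* was at 6.48, 2.39 and 0.51 on the small intestine arrays and at 2.48, 3.34 and 5.92 on those of colon, and as for *Fabp6* replicate 1 was the highest in small intestine and replicate 3 in colon.

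The nearest to *Cubn* were the water and glycerol channel *Aqp3* (0.86), the pantetheinase *Vnn1* (0.87), ENSMUST00000138201 (0.90), the inositol transporter *Slc5a11* (0.96) and the dipeptidase *Cndp1* (0.96), beside a median of 2.98. These distances were smaller than those for *Fabp6* and, apart from *9130221J18Rik*, for *Slc10a2*. Distances were not scaled to the range of a gene. *Amn*, the partner of *Cubn* in the receptor, was at 0.83 from it and would have come first had the other 7 genes been included, whereas *Fabp6* and *Slc10a2* were 2.79 apart. *Vnn1* was at 4.91, 5.26 and 5.09 in small intestine, at 4.16 and 2.90 in adjacent tissue and at -0.83, 0.46 and 0.30 in adenomas, and so stepped down over the same groups as *Cubn*.

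Of 38 other genes listed for bile acid and cobalamin handling, 37 were on the array, and their differences were tested with limma over all probes. Between adenomas and small intestine, 32 were tested and 17 changed, 4 upward and 13 downward, beside 21.9% of all probes tested. The median difference over the 37 genes was -0.58. Of 4 tested genes of bile acid export, 3 fell in adenomas. *Slc51a* was at 9.05, 7.59 and 7.96 in small intestine and at 4.05, 4.70 and 4.52 in adenomas, so that the groups did not overlap (log2 difference -3.78, standard error 0.39, limma adjusted p = 0.00046). Its partner *Slc51b* fell by 4.94 (limma adjusted p = 0.00026) and the apical pump *Abcc2* by 2.19 (0.00107).

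Of 5 other receptors for bile acids and their partners, 3 fell in adenomas. These were the vitamin D receptor *Vdr* (-2.06, limma adjusted p = 0.000151), the xenobiotic receptor PXR (*Nr1i2*, -1.98, 0.000584) and the partner of FXR, *Rxra* (-2.41, 0.000179). *Fgfr4*, the receptor of FGF15, rose by 2.69 (limma adjusted p = 0.000358). Of 6 transcription factors of the gut epithelium 4 fell, namely *Nr5a2* (-2.10), *Cdx1* (-1.75), *Cdx2* (-1.41) and *Hnf4a* (-1.40), with limma adjusted p from 0.000867 to 0.00218, and *Gata4* and *Gata6* did not pass the thresholds. The 4 epithelial markers differed in direction. *Epcam* was at 6.36 to 6.74 in small intestine and at 5.37 to 5.94 in adenomas and *Krt8* at 9.34 to 9.67 and 8.81 to 9.06, *Cdh1* overlapped (4.94 to 5.32 and 4.84 to 5.08), and *Krt18* was at 7.28 to 7.92 and 8.79 to 9.06. The part of this in the differences was not tested.

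Genes of cobalamin handling moved both ways in adenomas. The gene of intrinsic factor (*Cblif*, listed under its older name *Gif*), which in mice is made in the stomach, was above background on every adenoma array (-3.21, -1.76 and -1.39) and on no other array, at least 5.34-fold above small intestine (limma adjusted p = 0.00186). The transcobalamin receptor *Cd320*, at 1.48, 1.57 and 0.94 in small intestine, was at 3.84, 3.82 and 3.30 in adenomas (2.33, limma adjusted p = 0.000492). *Abcc1*, a pump that exports cobalamin from cells, rose by 3.0 (limma adjusted p = 0.000404). *Lmbrd1* and *Abcd4*, which release cobalamin from the lysosome, fell by 1.28 and by 1.44, and the mitochondrial factor *Mmaa* fell by 1.45, with limma adjusted p from 0.000695 to 0.00308. The enzymes that use cobalamin, *Mmut* (-0.70, limma adjusted p = 0.00914) and *Mtr* (0.90, 0.00753), moved in opposite directions. Both met the threshold of adjusted p and not that of fold change, so neither was called.

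Between adenomas and adjacent tissue, 3 of 32 tested genes changed, beside 3.98% of all probes tested. *Fgfr4* was higher by 1.74 (standard error 0.18, limma adjusted p = 0.00583), *Cblif* was at least 5.14-fold higher (limma adjusted p = 0.00902) and *Vdr* fell by 1.66 (limma adjusted p = 0.00449). No gene of the list passed without adjacent replicate 1 or without any single adenoma array, and 5 passed without adjacent replicate 2. Between adjacent tissue and small intestine none of 31 tested genes passed in limma, and 11 had an unadjusted p under 0.05.

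Between colon and small intestine none of 30 tested genes passed in limma, where 11 had an unadjusted p under 0.05. Without the library labelled colon replicate 3, 8 genes passed. *Abcc2* (-7.37), *Gata4* (-6.54), *Slc51a* (-3.52), *Slc51b* (-3.09), *Rxra* (-1.93) and *Abcd4* (-1.68) were lower in colon, and *Abcc1* (2.66) and *Cd320* (2.35) were higher. On that library itself *Slc51a* was at 9.67 and *Slc51b* at 6.26, against 4.79 and 4.56 and 2.01 and 2.45 on the other colon arrays, the same contrast as for *Fabp6*.

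Between CT26 and colon, 16 of 32 tested genes changed, 2 upward and 14 downward, beside 36.4% of all probes tested. Without the library labelled colon replicate 3, 19 changed, of which 15 were among the 16. *Nr1i3* was no longer among them, and *Abcc2* (-2.77), *Klb* (-3.16), *Abcd4* (2.34) and *Gata4* (3.96) were added. Transcription factors and exporters were among the genes that no CT26 array measured, for which the fold is a lower limit and gives no order. In CT26 *Hnf4a* was lower by at least 5760-fold (5.42e-07 as the adjusted p of limma), *Cdx1* by at least 3760-fold (8.33e-07), *Abcc3* by at least 697-fold (1.5e-06), *Nr5a2* by at least 311-fold (8.5e-07), *Nr1i2* by at least 195-fold (1.58e-06) and *Gata6* by at least 151-fold (8.6e-07). *Slc51a* and *Slc51b* rested in part on colon replicate 3, with *Slc51a* lower by at least 2760-fold (limma adjusted p = 0.000185) and by at least 871-fold without it, and *Slc51b* by at least 461-fold (0.000113) and 182-fold. *Cdx2*, which all CT26 arrays measured, fell by 8.27, and *Fgfr4*, measured on 1 of them, by 7.0. Methionine synthase (*Mtr*), one of the enzymes that use cobalamin, rose by 2.81 (limma adjusted p = 0.000154), and its reductase *Mtrr* was at least 3.07-fold higher (0.000651).

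**Figure D4:**
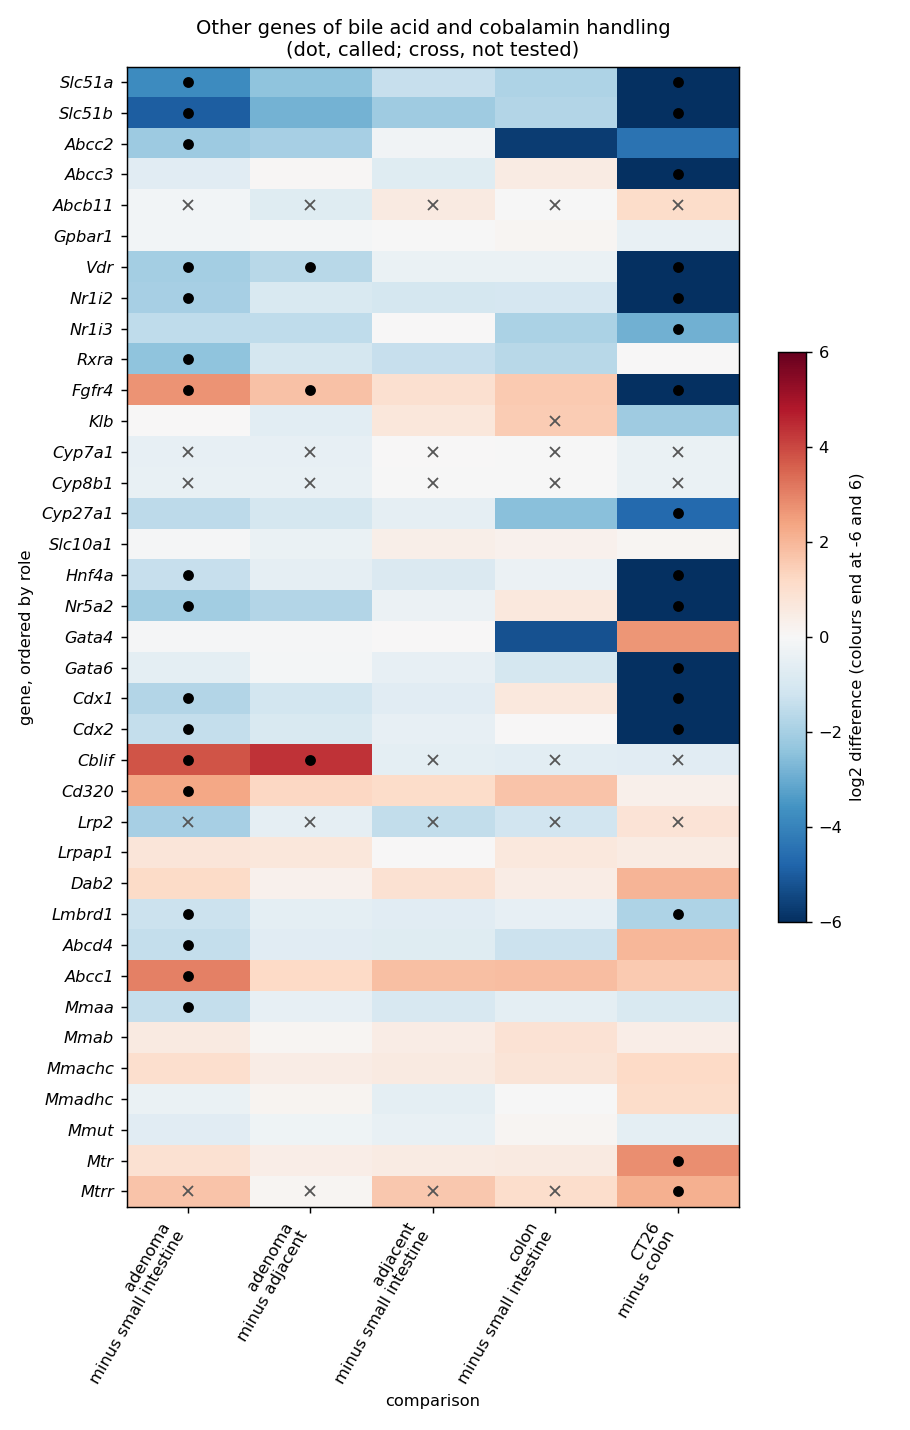
Log2 difference of group means of 37 other genes of bile acid and cobalamin handling (rows, ordered by role) in 5 comparisons (columns). Dots mark genes that passed a log2 fold change of 1.2 and a limma adjusted p of 0.01 and crosses genes that were not tested, and 17 genes passed between adenomas and small intestine and 16 between CT26 and colon.

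Some genes of liver bile acid handling served as a check of the list. *Cyp7a1* and *Cyp8b1*, enzymes of bile acid synthesis in the liver, and the hepatic exporter *Abcb11* were not above background on any array. For *Slc10a1*, the bile acid transporter of hepatocytes, a probe was bright on all arrays, CT26 included (8.14 to 9.26). The other was not above background on any (-7.53 to -5.88), so no expression of the gene is read here. Its bright probe was tested in all 5 comparisons and passed in none. It is part of the counts of tested genes and of the median over the 37 genes.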

How the data were processed

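Per the labels, RNA of 14 samples was labelled with Cy3 and hybridized to SurePrint G3 arrays. The authors deposited scanner output of Feature Extraction 10.7.3.1, in which the processed signal is a background-subtracted intensity not scaled between arrays, with flags of 0 or 1 per spot. The authors also deposited a table of log2 values normalized between arrays, used as an alternative, and fold changes and p-values of their comparisons, which were not used.

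Control spots and spots flagged as outliers were left out, the log2 signals of an array were set against their 75th percentile and spots of a probe were averaged. Probes that at least 1 of 2 groups measured well above background on all its arrays were compared with limma 3.58.1 (lmFit, eBayes) in R 4.3.3 on the arrays of those groups, with Benjamini-Hochberg adjustment over all probes tested (27302 to 29734), and called at a log2 fold change of 1.2 and an adjusted p of 0.01. The fit was tested on simulated data. The list of samples gives a single mouse for all adenoma and adjacent arrays, and no source states separate extractions for the CT26 arrays. The p-values thus measure the spread between these samples, and for adenomas and adjacent tissue they hold no spread between mice.

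The 8 genes and all lists were chosen with earlier results of these data known. Named were the 8 genes, up to 10 called genes of the other list per comparison, by size, and the 5 nearest profiles of *Fabp6*, *Slc10a2* and *Cubn*. Genes of that list beyond these, and marker genes, were named after their values were seen. *Malrd1* and *Ms4a12* were not found under their names. Alternatives were the table of the authors, quantile normalization, normexp (offset 50), a floor, other filters and thresholds, 1 fit of all 5 groups, slide or replicate number as a block, values within a slide and the omission of each array.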

Additional observations from a re-analysis of the deposited data

How the results depend on the processing

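No difference of the 8 genes of at least 1.2 in size changed sign under another normalization, background correction, floor or block with all arrays. Those that changed sign did so on the omission of an array or within a slide, where fewer arrays were used. *Slc10a2* between adenomas and small intestine ranged from -2.90 to 0.94 with an array left out (0.94 without small intestine replicate 1) and was 0.77 within slide 2. With an array left out, *Fgf15* ranged from -6.11 to 1.05 between adenomas and adjacent tissue (1.05 without adjacent replicate 1), from -6.32 to 0.83 between adjacent tissue and small intestine (0.83 without adjacent replicate 2) and from -2.48 to 0.73 between CT26 and colon (0.73 without colon replicate 3), and it was 1.74 within slide 2, 0.59 within slide 1 and 1.16 within slide 1, respectively. *Fabp6* between colon and small intestine ranged from -1.64 to 4.87 (-0.98 without small intestine replicate 3, -1.64 without colon replicate 3) and was -2.69 within slide 1. *Nr0b2* became 0.65 between colon and small intestine within slide 2 and 0.80 between CT26 and colon within slide 1. In those of *Nr0b2*, and of *Fgf15* other than between adjacent tissue and small intestine, 1 or both sides held no array above background. Adenoma replicate 2 (*Fgf15*, -4.54) and colon replicate 1 (*Nr0b2*, -2.40) were above it. No direction is read from these values. With all arrays or within a slide, 297 such values moved by less than 1 SD, 37 by more and 7 of that size changed sign, and with an array left out 204, 14 and 6.

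Of the other listed genes, those called between adenomas and adjacent tissue went from 3 to 13 at a log2 fold change of 1 and an adjusted p of 0.05, to 6 with normexp, and to 0 with slide as a block, with the replicate block (by either number) or with every probe tested, and ranged from 0 to 5 with an array left out. Between colon and small intestine they went from 0 to 4 with all 5 groups in 1 fit and ranged from 0 to 8 with an array left out, the 8 without colon replicate 3. Between CT26 and colon they went from 16 to 5 among probes above background in both groups.

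Deviations of arrays with the same replicate number had correlations from -0.122 to 0.322 over 5 comparisons, not all over 0.1 in any comparison with 3 pairs, where 2 of 6 arrays correlated best with their own number. The titles number the adjacent arrays 2 and 3. By these numbers, a choice made after seeing the data, the correlations with adenomas were 0.0131 and -0.0998 and with small intestine -0.109 and 0.267, and 0 of all probes were called in either comparison (8266 and 9502 at an unadjusted p under 0.05 in limma). By replicate number, those of adjacent tissue with small intestine were 0.322 and 0.109. The 2 adjacent arrays deviate from their mean by equal and opposite amounts, which limits this check. Pairs are thus not shown by either numbering, and not excluded. With the replicate block 16, 0, 0, 0 and 17 of these genes and 5785, 104, 0, 0 and 8432 of all probes (6462, 1182, 2, 2 and 10711 without it) were called, in the order of the report. Over all probes, the median difference between adenomas and small intestine was -0.15 (quantile -0.05, normexp -0.20) and between CT26 and colon 0.37 (quantile 0.40, normexp 0.12). Probes not above background carry only a bound, and 2 or 3 arrays a group limit the precision.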
